A study of Mus musculus with 105 samples.

Results

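Lin28a, Lin28b, Hmga2, Igf2bp1, Igf2bp2 and Igf2bp3 were taken by name from the count tables, where all 6 of 6 were found among 52108 genes in the bulk tables and among 34120 genes in the single-cell table. RNA was measured in TX1072, a female mouse embryonic stem cell (mESC) line that is an F1 hybrid of C57BL/6 (B6) and CAST/EiJ (Cast). Its B6 copy of Xist has a promoter that responds to doxycycline, and the activator rtTA was inserted in Rosa26. It was also measured in TXdXicB6 and TXdXicCast, which were made from TX1072 by deleting a region around Xist on the B6 or on the Cast X chromosome, and each of which is 1 clone (A1 and A6). All cells were kept in serum with LIF and 2 inhibitors (2i) on day 0 and were differentiated for 1, 2, 3 or 4 days without 2i and LIF in serum on fibronectin. Bulk libraries were made in 3 replicates per line and day, 45 in all, and single TX1072 cells were captured from 1 culture per day. The libraries held 19827011 to 39628784 counts in TX1072, 20246434 to 49962859 in TXdXicB6 and 16906263 to 57920260 in TXdXicCast, and 1472 of 2000 capture sites were retained as single cells. The 3 TXdXicCast libraries of day 0 were made from RNA that the study describes as degraded and fragmented more mildly than the others, so most changes in the deletion lines are given from day 1 as well as from day 0.

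LIN28A and LIN28B are RNA-binding proteins that block the maturation of let-7 microRNAs by binding their precursors, with the terminal loop as a known site. LIN28A is known to recruit enzymes that add uridines to them. Mature let-7 in turn pairs through its seed with the mRNAs of Lin28a and Lin28b themselves, of Hmga2, a chromatin protein that bends AT-rich DNA, and of the Igf2bp genes, whose products bind mRNAs such as those of Igf2, Myc and Actb and affect their stability and translation. Several of these genes are known as oncofetal genes, active in early embryos and tumours and low in most adult tissues. The libraries here measured mRNA and longer RNA, and mature microRNAs were not measured.

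The 9 mature let-7 family sequences of the RefSeq table (GRCm38.p6), which include miR-98, all shared the seed at bases 2 to 8, in capitals below. 3 of them are shown as examples that carry the seed.
mmu-let-7a-5p: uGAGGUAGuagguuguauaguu
mmu-let-7d-5p: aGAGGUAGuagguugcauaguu
mmu-miR-98-5p: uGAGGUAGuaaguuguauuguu

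Between the mature arms of the precursors lies the loop that LIN28 is known to bind, with GGAG as its best-known contact. Of 12 let-7 family hairpins in the same table, 9 held GGAG in this loop, and 2 loops with it (capitals) and 1 without it are shown, with their positions in GRCm38.
Mirlet7a-1 (chr13:48538210-48538238, minus strand): uuagggucacacccaccacugGGAGauaa
Mirlet7g (chr9:106178868-106178901, plus strand): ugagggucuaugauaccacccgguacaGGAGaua
Mirlet7b (chr15:85707347-85707378, plus strand): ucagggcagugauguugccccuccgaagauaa

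The complement of the seed, CTACCTC, was searched on the sense strand of the 3′ untranslated region (3′UTR) of the longest protein-coding GENCODE M21 transcript of each gene. It was found at 2 positions in Lin28a, 4 in Lin28b, 4 in Hmga2, 4 in Igf2bp1, 1 in Igf2bp2 and 1 in Igf2bp3. Each member also held at least 1 match that an A follows (CTACCTCA). Of 20917 genes searched, 8.86% held CTACCTC and 3.01% held CTACCTCA. Since these genes are listed together as known let-7 targets, the matches describe them and are not a finding. The first match with the A in each member is shown with 30 bases of its 3′UTR, the 7 paired bases in capitals, in GRCm38 (all on the minus strand, all in the last exon).
Lin28a (chr4:134005183-134005212): tgcacagcctgttgaaCTACCTCatttttg
Lin28b (chr10:45381016-45381045): cacccgggcgggaagtCTACCTCatgcaag
Hmga2 (chr10:120364218-120364247): cgccgacattcaatttCTACCTCagcatca
Igf2bp1 (chr11:95961772-95961801): tgctgtgcgaagtaaaCTACCTCaaggtgt
Igf2bp2 (chr16:22059467-22059496): aacacacaaataaaagCTACCTCaggtgtt
Igf2bp3 (chr6:49086781-49086810): gtgcatttttactcaaCTACCTCaggtatt

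The members moved in different directions once 2i and LIF were withdrawn. On day 4 in TX1072, Lin28a, Lin28b and Igf2bp3 were higher than on day 0, Hmga2 and Igf2bp2 were lower, and Igf2bp1 did not pass the test. This gave 5 of 6 members called at an adjusted p under 0.05, where 59.6% of the 18871 genes tested were called, so most genes changed and the count itself says little about the members. In the deletion lines 6 of 6 members were called between day 0 and day 4, 3 higher and 3 lower in each, against 59.5% of 19885 genes in TXdXicB6 and 69.8% in TXdXicCast. Over all 5 days at once, 6 of 6 members changed in each line, where 78.7%, 77.6% and 85% of genes did (edgeR F test). The median log2 fold change over the 6 members was 0.28 in TX1072, beside -0.03 over all genes tested. Levels are given as CPM, counts scaled to a library total of 1000000, with library sizes adjusted by the trimmed mean of M-values (TMM), and in bulk RNA fewer cells that express a gene and less RNA per cell cannot be told apart.

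Between single days of TX1072, the step from day 0 to day 1 was called for 6 of 6 members, 3 higher and 3 lower, where 47% of genes were called. From day 0 to day 2 it was 2 higher and 2 lower (background 56%), from day 0 to day 3 3 and 2 (56.1%), from day 1 to day 2 3 and 1 (39.2%), from day 3 to day 4 0 and 2 (27.8%), and from day 1 to day 4 3 and 3 (58.9%). In TXdXicB6 the first day gave 2 members higher and 3 lower (background 45.7%) and in TXdXicCast 2 and 2 (58.9%), while from day 1 to day 4 both lines had 3 higher and 3 lower (56.6% and 59.4%).

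**Figure D1:**
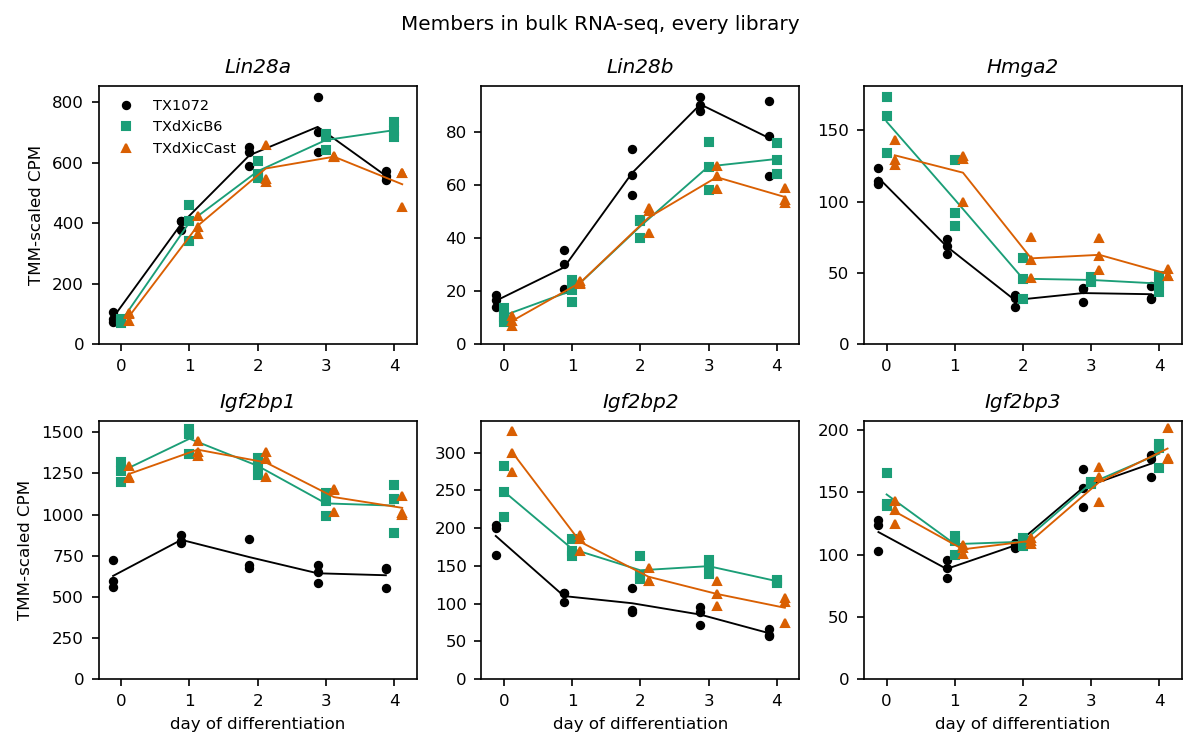
TMM-scaled CPM of the 6 genes (y axis, linear, from 0) by day of differentiation (x axis), with 1 point per library, 3 per line and day, and lines through the means. Lin28a and Lin28b climb from day 0 to day 3 in all 3 lines, Hmga2 and Igf2bp2 fall, Igf2bp1 is highest on day 1 and Igf2bp3 is lowest on day 1.

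Lin28a, at chr4:134003330-134018841 on the minus strand, was the member that rose most in TX1072. Its 3 TX1072 libraries held 84.7, 106 and 74.6 CPM on day 0, 409, 379 and 408 on day 1, 589, 635 and 652 on day 2, 817, 704 and 636 on day 3 and 574, 542 and 556 on day 4. The day 0 libraries were below every later library, and the day 1 libraries were below those of days 2, 3 and 4. By the edgeR quasi-likelihood test the level rose by log2 2.17 ± 0.13 (SE) to day 1 (adjusted p = 2.11e-10) and by 3.02 ± 0.13 to day 3 (adjusted p = 1.63e-12). The day 4 libraries were all below those of day 3, with a log2 difference of -0.37 ± 0.12 (edgeR, adjusted p = 0.0309), a call that is lost without TX1072 day 3 replicate 1 (adjusted p = 0.148), TX1072 day 3 replicate 2 (adjusted p = 0.0547), TX1072 day 4 replicate 1 (adjusted p = 0.0579), TX1072 day 4 replicate 2 (adjusted p = 0.100) or TX1072 day 4 replicate 3 (adjusted p = 0.0780). The level on day 4 was 6.30 times that of day 0. In TXdXicB6 the libraries held 69.7, 84.0 and 77.1 CPM on day 0, 408, 339.9 and 462 on day 1 and 704, 734 and 687 on day 4. In TXdXicCast they held 78.4, 104 and 99.5, 364, 387 and 424 and 567, 566 and 455 CPM on the same days. The day 4 libraries of TXdXicB6 were thus all above those of TXdXicCast, while the day 1 libraries of the lines overlapped. The mean level on day 4 was 9.20 times that of day 0 in TXdXicB6 and 5.63 times in TXdXicCast.

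Lin28b, the paralog of Lin28a, lies at chr10:45376620-45486395 and rose from a lower level. In TX1072 it was at 18.4, 13.9 and 16.8 CPM on day 0, 35.6, 20.8 and 30.4 on day 1, 73.5, 56.1 and 63.9 on day 2, 92.9, 87.9 and 90.1 on day 3 and 91.4, 63.3 and 78.5 on day 4. Its log2 change was larger from day 1 to day 2 than in the first day, with values of 0.82 ± 0.18 to day 1 (edgeR, adjusted p = 9.04e-04) and 1.16 ± 0.17 from day 1 to day 2 (adjusted p = 3.61e-05). The difference between these 2 steps was not tested. On day 4 it was at 4.75 times the day 0 level, a log2 change of 2.25 ± 0.18 (edgeR, adjusted p = 4.94e-09). The deletion lines began from 8.53, 10.2 and 13.7 CPM in TXdXicB6 and 6.85, 10.7 and 8.77 in TXdXicCast, and reached 64.1, 69.3 and 75.9 and 53.2, 58.8 and 54.3 CPM on day 4. No library of day 0 overlapped a library of day 4 in any line, and the day 4 change was 2.69 ± 0.16 in TXdXicB6 (edgeR, adjusted p = 4.83e-14) and 2.64 ± 0.16 in TXdXicCast (adjusted p = 6.19e-14). Between days 1 and 4 it was 1.79 ± 0.16 (edgeR, adjusted p = 1.45e-10) and 1.25 ± 0.15 (adjusted p = 7.27e-08).

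Hmga2, at chr10:120361275-120476469, fell while both Lin28 genes rose. It went from 112, 115 and 123 CPM on day 0 to 68.6, 63.1 and 74.1 on day 1, 32.2, 26.0 and 34.7 on day 2, 29.4, 39.0 and 39.3 on day 3 and 31.7, 32.4 and 41.2 on day 4 in TX1072. The libraries of days 2, 3 and 4 overlapped each other and lay below all libraries of days 0 and 1. The log2 change was -1.91 ± 0.14 on day 2 (edgeR, adjusted p = 2.04e-09) and -1.73 ± 0.14 on day 4 (adjusted p = 5.24e-09), when 30.1% of the day 0 level was left. TXdXicB6 libraries were at 134, 160.2 and 174 CPM on day 0, 92.3, 129 and 83.1 on day 1 and 43.1, 47.8 and 36.8 on day 4. TXdXicCast libraries were at 129, 143 and 125, 129.7, 132 and 99.5 and 47.6, 47.6 and 52.8 CPM. In TXdXicCast the first day brought a log2 difference of -0.14 (95% interval -0.50 to 0.23), which did not pass the test (edgeR, adjusted p = 0.538), with the degraded day 0 libraries as its base. From day 1 to day 4 Hmga2 fell by 1.29 ± 0.19 on the log2 scale in TXdXicCast (edgeR, adjusted p = 1.48e-06) and by 1.25 ± 0.19 in TXdXicB6 (adjusted p = 2.51e-06).

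The 3 Igf2bp genes encode close relatives, and each had its own course. Igf2bp2, at chr16:22059009-22163299, fell. Its TX1072 libraries held 164, 205 and 199.8 CPM on day 0, 102, 114 and 113 on day 1, 121, 88.9 and 91.3 on day 2, 95.1, 89.3 and 71.9 on day 3 and 57.0, 67.0 and 58.9 on day 4. All 3 day 0 libraries were above every later one, and all 3 day 4 libraries were below every earlier one. The log2 change was -0.79 ± 0.14 on day 1 (edgeR, adjusted p = 1.14e-04) and -1.64 ± 0.14 on day 4 (adjusted p = 1.02e-08). TXdXicB6 went from 282, 248 and 215 CPM on day 0 to 169, 186 and 163 on day 1 and 131, 130.3 and 128 on day 4. TXdXicCast went from 329, 274 and 299 to 190.5, 185 and 169 and 102, 107 and 74.2 CPM. The decline left 52.2% of the day 0 level in TXdXicB6 and 31.4% in TXdXicCast, with no overlap between day 0 and day 4 in either.

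Igf2bp3, at chr6:49085223-49214957, dipped and then rose. The TX1072 libraries were at 128, 124 and 103 CPM on day 0, 89.0, 80.9 and 95.7 on day 1, 107, 105 and 109 on day 2, 154, 169 and 139 on day 3 and 180.4, 163 and 177 on day 4. The log2 change was -0.42 ± 0.11 on day 1 (edgeR, adjusted p = 0.00374) and 0.55 ± 0.11 on day 4 (adjusted p = 2.28e-04), so the sign turned within the course. Both deletion lines had the same 2 steps, a log2 change to day 1 of -0.45 ± 0.087 in TXdXicB6 (edgeR, adjusted p = 9.78e-05) and -0.37 ± 0.087 in TXdXicCast (adjusted p = 6.29e-04), and a rise from day 1 to day 4 of 0.74 ± 0.087 (adjusted p = 3.49e-08) and 0.83 ± 0.087 (adjusted p = 4.21e-09). In the deletion lines the day 4 libraries held 169 to 189 CPM and 177 to 202 CPM. The 3′ end of Igf2bp3 overlaps Malsu1 on the other strand, and the sources used here do not say whether the bulk counting used strand, so reads in that overlap cannot be assigned with certainty. The same holds for short overlaps of exons of Lin28a, Hmga2 and Igf2bp1 with the noncoding genes Gm13061, 1700006J14Rik and Gm29202 on the other strand.

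Igf2bp1, at chr11:95957163-96005940, had a log2 change between day 0 and day 4 closer to 0 than the other members in each line, by a narrow margin in TXdXicB6, where Igf2bp3 was at 0.29 ± 0.086 (SE). In TX1072 it was at 561, 725 and 595 CPM on day 0, 836, 825 and 877 on day 1, 694, 675 and 854 on day 2, 585, 694 and 649.7 on day 3 and 551, 672 and 669 on day 4. All 3 day 1 libraries were above all 3 of day 0, with a log2 change of 0.43 ± 0.12 (edgeR, adjusted p = 0.00814). By day 4 the log2 difference from day 0 was 0.0088 (95% interval -0.23 to 0.25; edgeR, adjusted p = 0.958). The deletion lines were at 1200.0 to 1319 and 1221 to 1294 CPM on day 0 and at 885 to 1181 and 998 to 1112 CPM on day 4. There it fell slightly, by 0.26 ± 0.091 on the log2 scale in TXdXicB6 (edgeR, adjusted p = 0.0156) and by 0.26 ± 0.091 in TXdXicCast (adjusted p = 0.0124). Both calls are lost without the filter on low counts, with edgeR adjusted p = 0.103 and 0.0528, and without 1 library in edgeR, TXdXicB6 day 0 replicate 2 (-0.23, adjusted p = 0.0672) or TXdXicB6 day 4 replicate 3 (-0.14, adjusted p = 0.183) in TXdXicB6 and TXdXicCast day 4 replicate 2 (-0.23, adjusted p = 0.0508) in TXdXicCast. Without the filter the day 4 call of Igf2bp3 in TXdXicB6 is lost as well (edgeR, adjusted p = 0.0530). From day 1 to day 4 the mean of Igf2bp1 went from 1461 ± 80.8 to 1054 ± 153 CPM (SD, n = 3) in TXdXicB6. In TXdXicCast it went from 1394 ± 46.5 to 1041 ± 62.6 CPM. Its day 4 libraries did not overlap those of day 1 in either line. TX1072 and the deletion lines were made with different library kits and sequencers, so levels between them were not compared.

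**Figure D2:**
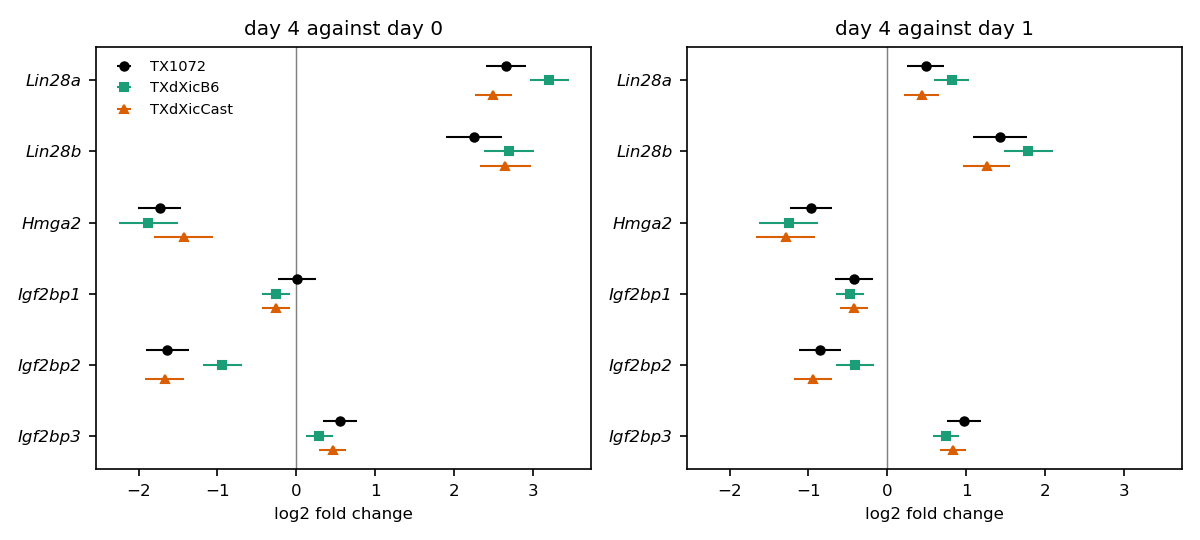
Log2 fold change on day 4 (x axis) for each member (y axis) against day 0 (left) and against day 1 (right), from the edgeR fit of each table, with bars of the 95% interval and 3 libraries per line and day. Lin28a and Lin28b lie right of 0 and Hmga2 and Igf2bp2 left of 0 in all 3 lines, on both bases.

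The days in between followed the same courses in the deletion lines. On days 2 and 3 Lin28a was at 572 ± 29.4 and 676 ± 28.8 CPM (SD, n = 3) in TXdXicB6 and at 582 ± 67.5 and 620.5 ± 3.21 in TXdXicCast. Lin28b was at 44.4 ± 3.79 and 67.0 ± 8.99 CPM in TXdXicB6 and at 47.7 ± 5.18 and 62.9 ± 4.45 in TXdXicCast. Both genes had their highest mean on day 3 in TXdXicCast, as in TX1072, and on day 4 in TXdXicB6. Hmga2 was at 46.0 ± 14.1 and 45.1 ± 2.06 CPM in TXdXicB6 and at 60.3 ± 14.3 and 62.7 ± 11.3 in TXdXicCast. Igf2bp2 was at 144 ± 16.4 and 149.6 ± 8.94 CPM in TXdXicB6 and at 136 ± 10.3 and 113 ± 16.5 in TXdXicCast. Igf2bp1 and Igf2bp3 lay between 885 and 1521 CPM and between 99.5 and 202 CPM over the 30 libraries of the deletion lines.

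The order of the members changed between day 0 and day 4. Levels of different genes were compared as TMM-scaled CPM per kilobase of protein-coding exon. On day 0 in TX1072 the order was Igf2bp1 (74.9 ± 10.4, SD, n = 3), Igf2bp2 (46.9 ± 5.43), Hmga2 (30.6 ± 1.55), Igf2bp3 (27.2 ± 3.02), Lin28a (22.1 ± 3.99) and Lin28b (3.03 ± 0.428) CPM per kilobase. Among neighbours in that order, the libraries overlapped for Igf2bp3 and Lin28a and for no other pair. On day 4 Lin28a led with 139 ± 4.10 CPM per kilobase, followed by Igf2bp1 with 75.3 ± 8.23, Igf2bp3 with 39.9 ± 2.15, Igf2bp2 with 15.1 ± 1.31, Lin28b with 14.4 ± 2.61 and Hmga2 with 9.21 ± 1.39, where Igf2bp2 and Lin28b overlapped. Lin28a had gone from the second lowest to the highest. In TXdXicB6 on day 4 it was also above Igf2bp1, with 177 ± 5.97 against 126 ± 18.2 CPM per kilobase, while in TXdXicCast the libraries of these genes overlapped, with 132 ± 16.0 against 124 ± 7.47.

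Lin28a and Igf2bp2 were called between the deletion lines on day 4. Before that, 0 of 6 members were called between TXdXicCast and TXdXicB6 on each of days 0, 1, 2 and 3 by edgeR, where 19.8%, 0.402%, 0.372% and 1.26% of 19885 genes were, and 2, 0, 1 and 2 members had an unadjusted p under 0.05 (DESeq2 called 1, 0, 0 and 0). With replicate as a block, 1 member was called on day 0 (Igf2bp2, log2 difference 0.28 ± 0.11, adjusted p = 0.0500 in edgeR) and 1 on day 3 (Igf2bp2, -0.42 ± 0.11, adjusted p = 0.0313). Lin28a on day 0 was called with TMM factors from autosomal genes (0.34 ± 0.11, adjusted p = 0.0350), and Hmga2 on day 3 without the filter on low counts (0.47 ± 0.13, adjusted p = 0.0267). Though not called in the main fit, the day 3 libraries of the lines already did not overlap for Lin28a, Igf2bp2 and Hmga2. Lin28a was at 643 to 697 CPM in TXdXicB6 and 619 to 624 in TXdXicCast. Igf2bp2 was at 140 to 157 and 96.5 to 129 CPM, and Hmga2 at 43.7 to 47.5 and 52.0 to 74.5 CPM. On day 4 Lin28a and Igf2bp2 were lower in TXdXicCast, 2 of 6 members against a background of 5.86%. The log2 difference, TXdXicCast minus TXdXicB6, was -0.42 ± 0.11 for Lin28a (edgeR, adjusted p = 0.0252) and -0.46 ± 0.12 for Igf2bp2 (adjusted p = 0.0252). Neither passed when the day 4 libraries were fitted alone, with adjusted p = 0.0928 and 0.113 in edgeR. The call of Lin28a is also lost in edgeR without TXdXicB6 day 4 replicate 1 (-0.42, adjusted p = 0.0717), TXdXicB6 day 4 replicate 2 (-0.40, adjusted p = 0.0881), TXdXicB6 day 4 replicate 3 (-0.43, adjusted p = 0.0564) or TXdXicCast day 4 replicate 3 (-0.32, adjusted p = 0.258), and that of Igf2bp2 without TXdXicB6 day 4 replicate 1 (-0.45, adjusted p = 0.0817), TXdXicB6 day 4 replicate 2 (-0.46, adjusted p = 0.0685), TXdXicB6 day 4 replicate 3 (-0.46, adjusted p = 0.0628) or TXdXicCast day 4 replicate 3 (-0.31, adjusted p = 0.293). The change from day 0 to day 4 differed between the lines for the same 2 genes, by -0.71 ± 0.16 (edgeR, adjusted p = 0.00409) and -0.73 ± 0.18 (adjusted p = 0.00570), where 15% of genes were called. The change from day 0 to day 3 differed for Igf2bp2, by -0.68 ± 0.17 (edgeR, adjusted p = 0.0157), where 9.12% of genes were called. With replicate as a block it also differed for Hmga2, by 0.73 (edgeR, adjusted p = 0.0439). From day 1, which leaves out the degraded libraries, the differences were -0.38 ± 0.16 (edgeR, adjusted p = 0.367) and -0.53 ± 0.18 (adjusted p = 0.179), and no member was called, against 0.749% of genes. Markers of cell state also differed between the lines on day 4. In TXdXicCast 4 of 9 formative and 2 of 6 core pluripotency genes were lower and none higher, while 2 of 11 naive, 2 of 8 endoderm, 2 of 7 fibroblast and 1 of 6 trophoblast genes were higher and none lower, where 4.01% of all genes were higher and 1.85% lower. None of 7 mesoderm and 5 neural genes was called. The part of these states in the differences of Lin28a and Igf2bp2 was not tested. Each deletion line is 1 clone, so the deleted chromosome and the clone cannot be told apart.

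Because TX1072 is a hybrid, reads over strain variants could be told apart by allele. The protein-coding exons of Lin28a, Lin28b, Hmga2, Igf2bp1, Igf2bp2 and Igf2bp3 held 12, 23, 8, 35, 10 and 7 variants of the deposited list. Over all autosomal genes the B6 share was 51.0% to 51.4% in the TX1072 libraries, which held 3552174 to 8029685 allele-resolved counts. The deletion-line libraries held 1347911 to 16927164 in TXdXicB6 and 5280868 to 18668121 in TXdXicCast, the lowest being replicate 1 of TXdXicB6 on day 0. All 6 members are autosomal.

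Lin28b went from mostly Cast to balanced. Its B6 share was 23.6, 22.2 and 15.3% in the 3 TX1072 libraries of day 0, 37.4, 37.0 and 43.2% on day 1, 47.0, 49.4 and 48.3% on day 2, 49.9, 49.4 and 50.6% on day 3 and 48.3, 50.3 and 51.8% on day 4, each from at least 144 reads. The groups of day 0, day 1 and day 2 did not overlap. The B6 allele rose from 5.97 ± 1.02 (SD, n = 3) to 69.2 ± 12.5 CPM of allelic counts and the Cast allele from 23.8 ± 4.18 to 69.2 ± 15.9, so both rose and B6 rose more. The log2 B6 to Cast ratio changed by 1.93 ± 0.17 between day 0 and day 4 (edgeR, adjusted p = 1.61e-14), where 15% of 13449 genes were called. In TXdXicB6 the share went from 28.6, 28.1 and 22.0% on day 0 to 50.6, 54.2 and 50.5% on day 4, and in TXdXicCast from 34.4, 25.7 and 21.5% to 49.1, 52.0 and 50.2%. The change was 1.65 ± 0.21 (edgeR, adjusted p = 8.83e-10) and 1.61 ± 0.18 (adjusted p = 1.99e-11), beside backgrounds of 16.3% and 21.6%, although 1 TXdXicB6 library of day 0 had only 21 such reads. From day 1 to day 4, without the degraded libraries, it was 0.78 ± 0.14 in TXdXicB6 (edgeR, adjusted p = 7.25e-06; background 16.1%) and 0.43 ± 0.13 in TXdXicCast (adjusted p = 0.0171; background 15.6%), where the call is lost without TXdXicCast day 1 replicate 1 (0.43, adjusted p = 0.0821) or TXdXicCast day 1 replicate 2 (0.40, adjusted p = 0.0601). The deletion lines were derived from TX1072, so the 3 lines share 1 pair of parental genomes.

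Lin28a shifted the same way to a smaller extent and within 1 day. Its B6 share was 44.5, 45.4 and 43.6% on day 0, 55.4, 56.3 and 54.0% on day 1 and 52.3, 51.5 and 52.8% on day 4 in TX1072. In TXdXicB6 it was 30.3, 40.2 and 40.3% on day 0, 56.9, 56.9 and 56.9% on day 1 and 51.6, 51.6 and 53.2% on day 4, and in TXdXicCast 42.0, 42.6 and 42.5%, 57.7, 57.1 and 56.9% and 53.0, 53.2 and 53.0%. The 30.3% of TXdXicB6 replicate 1 rested on only 132 allelic reads, and without this library the log2 change to day 4 was 0.69 (edgeR, adjusted p = 1.34e-11). In each line the share was under 50% in every day 0 library and over 50% in every library of days 1 and 4. On days 2 and 3 it was over 50% in every library except TX1072 day 3 replicate 2, at 49.7%. The log2 ratio changed from day 0 to day 4 by 0.44 ± 0.078 in TX1072 (edgeR, adjusted p = 1.42e-05), 0.75 ± 0.073 in TXdXicB6 (adjusted p = 1.39e-13) and 0.62 ± 0.060 in TXdXicCast (adjusted p = 1.30e-13). From day 1 to day 4 it turned back, by -0.28 ± 0.052 in TXdXicB6 (edgeR, adjusted p = 1.81e-05) and -0.24 ± 0.052 in TXdXicCast (adjusted p = 2.32e-04).

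Hmga2 was higher from the Cast allele on every day. The B6 share in TX1072 was 40.8, 39.9 and 35.6% on day 0, 27.8, 31.0 and 29.9% on day 1, 27.5, 28.0 and 22.6% on day 2, 29.8, 33.8 and 39.0% on day 3 and 34.2, 29.6 and 39.7% on day 4. The lowest share came on day 2 in all 3 lines, at 26.0% ± 3.01 (SD, n = 3) in TX1072, 26.4% ± 0.985 in TXdXicB6 and 27.9% ± 4.17 in TXdXicCast. Over the 5 days the log2 B6 to Cast ratio was -1.05 ± 0.059 in TX1072 (edgeR, adjusted p = 7.45e-24), -0.88 ± 0.043 in TXdXicB6 (adjusted p = 8.80e-30) and -0.80 ± 0.037 in TXdXicCast (adjusted p = 7.58e-31), where 63.7%, 61.4% and 63.4% of genes were called. The change between day 0 and day 4 did not pass in any line, with edgeR adjusted p = 0.349, 0.129 and 0.439. From day 1 to day 4 the ratio changed by 0.53 ± 0.12 in TXdXicB6 (edgeR, adjusted p = 7.40e-04) and by 0.40 ± 0.12 in TXdXicCast (adjusted p = 0.00957), where the call is lost without TXdXicCast day 1 replicate 1 (0.34, adjusted p = 0.0828) or TXdXicCast day 4 replicate 1 (0.36, adjusted p = 0.0948). The Igf2bp genes were nearer balance in bulk, with group means over all lines and days of 49.1% to 52.4% B6 for Igf2bp1, 44.7% to 53.1% for Igf2bp2 and 49.1% to 56.3% for Igf2bp3. Over the 5 days the log2 B6 to Cast ratio of Igf2bp2 was -0.18 ± 0.024 in TXdXicB6 and -0.13 ± 0.024 in TXdXicCast (edgeR, adjusted p = 1.27e-09 and 1.24e-06). That of Igf2bp3 was 0.16 ± 0.033 and 0.22 ± 0.031 (edgeR, adjusted p = 2.59e-05 and 3.63e-09). In TX1072 neither passed (edgeR, adjusted p = 0.187 and 0.161), while Igf2bp1 did, with 0.11 ± 0.017 (adjusted p = 1.74e-07), and in TXdXicCast it was 0.040 ± 0.014 (adjusted p = 0.0106). The median ratio over all genes was 0.065 in TX1072, 0.079 in TXdXicB6 and 0.063 in TXdXicCast. The TXdXicCast value of Igf2bp1 thus lay below the median of all genes. Mean B6 shares in TX1072 were 52.1% ± 1.11 on day 0 and 52.1% ± 0.201 on day 4 for Igf2bp1, 49.3% ± 1.41 and 50.1% ± 2.88 for Igf2bp2, and 50.5% ± 0.930 and 49.1% ± 1.07 for Igf2bp3. None of the 3 passed the test for a change from day 0 to day 4 in any line. From day 1 to day 4 the log2 B6 to Cast ratio fell slightly for Igf2bp2 in TXdXicB6, with -0.21 ± 0.073 (edgeR, adjusted p = 0.0314), and for Igf2bp1 in TXdXicCast, with -0.12 ± 0.044 (adjusted p = 0.0440), and neither passed in the other deletion line. Both calls are lost in edgeR without the filter on low counts. They are also lost without 1 library, that of Igf2bp2 without TXdXicB6 day 4 replicate 1 (adjusted p = 0.0953), TXdXicB6 day 1 replicate 2 (adjusted p = 0.0595) or TXdXicB6 day 1 replicate 3 (adjusted p = 0.123) and that of Igf2bp1 without TXdXicCast day 1 replicate 2 (adjusted p = 0.0507), TXdXicCast day 4 replicate 2 (adjusted p = 0.0648), TXdXicCast day 1 replicate 3 (adjusted p = 0.139) or TXdXicCast day 4 replicate 3 (adjusted p = 0.0643). Igf2bp3 is called in edgeR in TXdXicB6 without TXdXicB6 day 1 replicate 2 (-0.34, adjusted p = 0.0220) or TXdXicB6 day 4 replicate 3 (-0.30, adjusted p = 0.0282), and in TXdXicCast without TXdXicCast day 4 replicate 1 (-0.33, adjusted p = 0.0249).

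**Figure D3:**
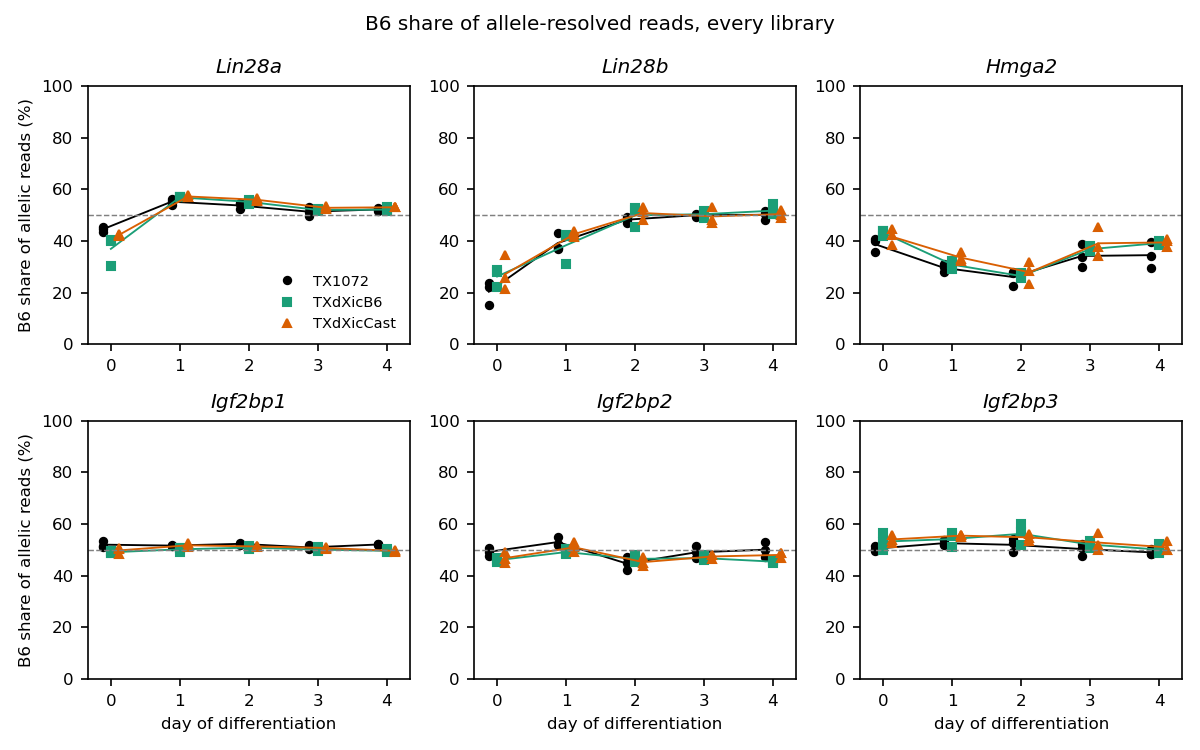
B6 share of allele-resolved reads in percent (y axis) of the 6 genes by day (x axis), with 1 point per bulk library, 3 per line and day, lines through the means and a dashed line at 50%. Lin28b climbs from 15.3% to 34.4% on day 0 to 48.3% to 54.2% on day 4 over the 3 lines, Lin28a crosses 50% between day 0 and day 1, and Hmga2 stays below 50% with its lowest values on day 2.

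Single TX1072 cells gave the same directions for the 5 members called in bulk on day 4, at the level of UMIs, the molecular tags that count captured RNA molecules. They numbered 277, 325, 341, 257 and 272 on days 0 to 4, with median depths of 138565, 124651, 125591, 130377 and 171158 UMIs. The 2000 site names were all distinct, every chip column carried the same 40 row barcodes, and the retained sites had been listed as holding 1 cell by imaging, so no doublet caller was run. With 1 culture per day no test was made, and intervals cover counting error only. Lin28a was at 6.36 (5.59 to 7.20) UMI CPM (UMIs scaled to a total of 1000000 over the cells of a day, with the 95% Poisson interval) on day 0, 28.9 (27.3 to 30.6) on day 1 and 48.2 (46.2 to 50.3) on day 4. Lin28b was at 11.9 (10.8 to 13.0) on day 0, 32.3 (30.6 to 34.1) on day 1 and 56.4 (54.2 to 58.6) on day 4. These counting intervals did not overlap between day 0 and the later days given. The chip columns of Lin28b spanned 0.867 to 29.4 UMI CPM on day 0 and 21.1 to 49.2 on day 1, which overlap. On day 4 they spanned 38.3 to 75.2. Those of Lin28a spanned 2.07 to 11.6 on day 0, 19.6 to 57.0 on day 1 and 24.5 to 61.2 on day 4. Hmga2 went from 272 (267 to 277) to 91.1 (88.2 to 94.0) on day 2 and 109.8 (107 to 113) on day 4, and Igf2bp2 from 195 (191 to 199.7) to 78.6 (76.0 to 81.2) on day 4. Igf2bp3 went from 161 (157 to 165) to 124 (121 to 128) on day 1 and 245 (240.1 to 249) on day 4, and Igf2bp1 from 498 (491 to 505) to 597 (589 to 604) on day 1 and 478 (471 to 484) on day 4. The high point of Igf2bp1 on day 1 was thus seen here too, in cells of the culture that also gave bulk replicate 1. Igf2bp3 was lower on day 1 than on day 0 and day 4. Its chip columns spanned 115 to 138 UMI CPM on day 1 and 80.1 to 176 on day 2, so day 1 did not stand apart from day 2.

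The shares of cells with at least 1 UMI show how the members were spread over cells. Lin28a was seen in 20.6% (16.0 to 25.8) of day 0 cells (95% Clopper-Pearson interval), 75.1% (70.0 to 79.7) of day 1 cells and 80.1% (74.9 to 84.7) of day 4 cells, and after thinning every cell to 40000 UMIs in 11.2%, 49.8% and 60.7%. Lin28b was seen in 18.4% (14.0 to 23.5), 41.8% (36.4 to 47.4) and 58.5% (52.4 to 64.4) of cells on the same days, and after thinning in 13.0%, 32.6% and 44.9%. Hmga2 was seen in 99.6% (98.0 to 100.0) of cells on day 0 and 72.4% (67.4 to 77.1) on day 2, and after thinning in 98.2% and 63.3%. Igf2bp1 was seen in every retained cell of every day, also after thinning. The 54 sites listed as empty held a median of 10047.5 UMIs, and 31.5% of them had a Lin28a UMI, 27.8% a Lin28b UMI, 40.7% a Hmga2 UMI and 92.6% an Igf2bp1 UMI, at 44.0, 51.9, 137 and 530.1 UMI CPM. The empty sites numbered 10, 7, 4, 14 and 19 on days 0 to 4, so days 3 and 4 weigh most in these pooled values. Pooled in this way, the empty sites were close by UMI CPM to cells of the later days, at a far lower depth. By day, Hmga2 was at 206 UMI CPM in the empty sites of day 0 and 52.6 in those of day 3. Lin28a was at 0 and 78.9 UMI CPM there. The shares of day 0 cells with a UMI of either Lin28 gene lie below those of the empty sites of all days together and are not read as expression. On day 0 itself 0 of 10 empty sites had a Lin28a UMI and 1 of 10 had a Lin28b UMI, and the part of free RNA in the shares of any day was not tested. Within a day the Spearman correlations of thinned counts between members ran from -0.14 to 0.23 over the 15 pairs and 5 days (257 to 341 cells), and from -0.20 to 0.20 with the summed level of 11 naive pluripotency genes. Cells of a day share a culture, and these values are a description.

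**Figure D4:**
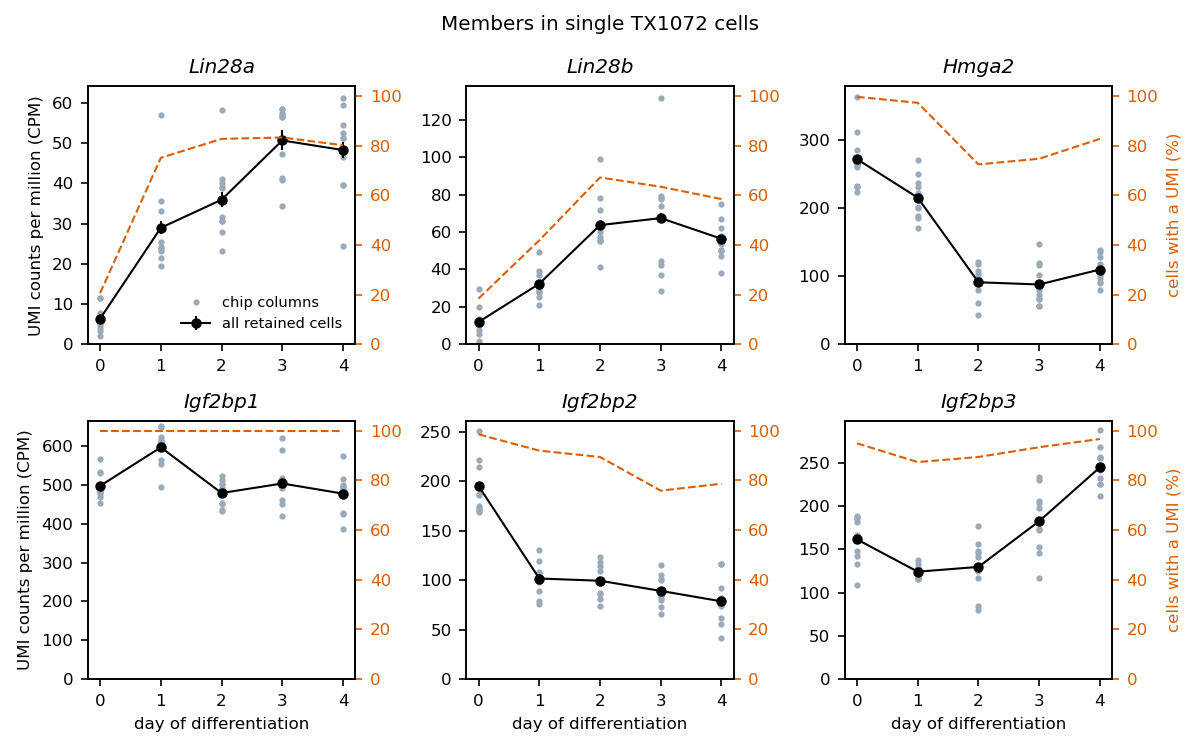
UMI CPM of the 6 genes in retained TX1072 cells (left axis, linear, from 0) by day, as black points with 95% Poisson intervals and grey points for the 10 chip columns of each day, and the percentage of cells with a UMI (dashed, right axis). Lin28a and Lin28b rise, Hmga2 and Igf2bp2 fall, and Igf2bp1 stays between 478 and 597 UMI CPM.

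Unspliced UMIs, which overlap introns, made up most of the Lin28a UMIs on days 0 to 2. They were 81.0% (78.8 to 83.1) of its spliced and unspliced UMIs on day 0 (95% Clopper-Pearson interval), 74.4% on day 1, 60.4% on day 2, 44.8% on day 3 and 38.0% (36.4 to 39.6) on day 4. Over all genes the unspliced share was 10.7% on day 0, 13.3% on day 1, its highest, and 11.3% on day 4. In counts, spliced Lin28a UMIs went from 246 to 2179 while unspliced ones went from 1052 to 3443 on day 1 and back to 1334 on day 4. The unspliced molecules were thus highest on day 1 and the spliced ones on a later day, without a test since each day is 1 culture. Lin28b had an unspliced share of 41.4% (38.0 to 45.0) on day 0, 51.5%, 51.8% and 54.8% on days 1, 2 and 3 and 49.1% (47.7 to 50.5) on day 4, so the day 0 interval lay below that of day 4. Igf2bp3 went from 20.0% on day 0 to 37.3% on day 1 and 23.9% on day 4, Igf2bp2 from 9.98% to 20.3% and 9.45%, and Hmga2 from 17.0% to 20.5% and 9.84%. Almost all UMIs of Igf2bp1 were counted as spliced, with 1.60% unspliced on day 0 and 1.55% on day 4. UMIs that lie only in exons are counted as spliced, whether or not they cross a splice junction. In 3′-end libraries priming inside introns also gives such UMIs, and its part in these shares was not tested.

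**Figure D5:**
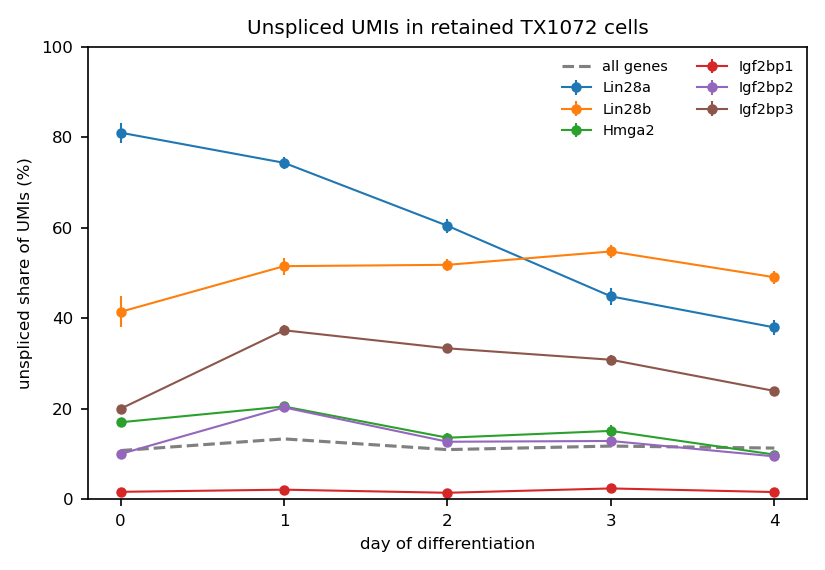
Unspliced share of spliced and unspliced UMIs in percent (y axis) of the 6 genes in retained TX1072 cells by day (x axis), with 95% Clopper-Pearson intervals, and the share over all genes as a dashed line. Lin28a falls from 81.0% on day 0 to 38.0% on day 4, and Igf2bp1 stays below the dashed line on every day.

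Allelic UMIs in the same cells were fewer. For Lin28b 1 of 33 came from B6 on day 0 (3.03%, 95% Clopper-Pearson interval 0.0767 to 15.8), 29 of 62 on day 1, 115 of 189 on day 2 (60.8%, 53.5 to 67.8), 126 of 197 on day 3 (64.0%, 56.8 to 70.7) and 99 of 173 on day 4 (57.2%, 49.5 to 64.7), so the day 0 and day 4 intervals did not overlap. On days 2 and 3 the intervals lay above 50% and above the bulk shares. For Hmga2 498 of 1494 came from B6 on day 0 and 111 of 559 on day 2, 33.3% and 19.9%. On day 3 it was 18.7% of 385 and on day 4 31.8% of 581. For Lin28a the B6 share was 63.3% of 30 UMIs on day 0 (95% Clopper-Pearson interval 43.9 to 80.1), which includes the bulk mean. It was 89.5% of 286 on day 4 (85.4 to 92.8), above the bulk values of that day. For Igf2bp2 it ran from 31.5% to 46.7% over the 5 days and for Igf2bp3 from 34.0% to 55.0%, with 117 to 424 UMIs behind each value. The gap between the assays was not tested.

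The cell states around the members were read from marker lists. Between day 0 and day 4 in TX1072, 30.2% of all genes tested rose and 29.4% fell, which is the background of each list here. All 11 naive pluripotency genes fell between day 0 and day 4 in TX1072, and their summed level went from 5287 ± 236 to 482 ± 59.0 CPM (SD, n = 3), with Tfcp2l1 as the most abundant on day 0. Of 9 formative genes, which mark the state after naive pluripotency, 8 rose and 1 did not pass the test, among them Fgf5 from 0.116 ± 0.0723 to 135 ± 5.00 CPM and Dnmt3b, a DNA methyltransferase, from 185 ± 34.9 to 543 ± 76.3 CPM. Pou5f1, a core pluripotency factor, was at 1121 ± 205 CPM on day 0 and 558 ± 12.4 CPM on day 4. Of the 6 core pluripotency genes 2 rose and 4 fell. The naive and formative lists match the label of embryonic stem cells that leave naive pluripotency. Markers of other lineages moved with the days as well. The summed level of 8 mesoderm genes went from 18.2 ± 3.10 to 232 ± 105 CPM, led by T, that of 8 endoderm genes from 5.10 ± 1.32 to 44.4 ± 11.2 CPM, led by Dab2, and that of 7 neural genes from 82.0 ± 18.7 to 196 ± 14.7 CPM, led by Nes. Of the tested genes, 5 of 7 mesoderm, 7 of 7 endoderm and 4 of 5 neural genes rose and 0, 0 and 1 fell. Of 8 fibroblast genes, summed at 25.0 ± 4.37 and 17.9 ± 1.46 CPM, and 7 trophoblast genes, summed at 79.8 ± 17.7 and 55.1 ± 5.71 CPM, 2 in each list were at 0 in all day 0 libraries. Of the fibroblast genes 4 of 7 tested rose and 2 fell, with a median log2 change of 4.99 although the sum was lower, and of the trophoblast genes 2 of 5 rose and 2 fell. The part of these cells in the members' changes was not tested.

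The genes of the let-7 pathway itself, other than Lin28, were called about as often as genes in general in TX1072, where 30.2% of all genes tested rose and 29.4% fell. Of 21 tested processing and effector genes 5 rose, 6 fell and 10 did not pass between day 0 and day 4 in TX1072, with a median log2 change of 0.04. Prkra, a partner of Dicer, rose by 2.07 ± 0.21, while Trim25, an E3 ligase that takes part in let-7 precursor decay, changed by -1.54 ± 0.15 and Ago2, the argonaute that cuts target RNA, by -0.92 ± 0.16 (SE; edgeR, adjusted p = 9.40e-08, 6.47e-08 and 6.29e-05). In TXdXicB6 4 of 21 rose and 8 fell (all genes 30% and 29.5%), and in TXdXicCast 4 rose and 12 fell (all genes 36.2% and 33.6%). Without the degraded libraries, from day 1 to day 4, 6 rose and 4 fell in TXdXicB6 (all genes 27.9% and 28.7%) and 7 rose and 7 fell in TXdXicCast (all genes 29.3% and 30.1%). The 13 let-7 hairpin and host genes in the tables were all under 1 CPM on average on day 0 and day 4 in every line, and 3 passed the filter in TX1072 and 5 in each deletion line. Between day 0 and day 4, 0 of the 3 were called in TX1072 by edgeR (0 with an unadjusted p under 0.05), and 1 of the 5 rose in each deletion line. These were Mirlet7e in TXdXicB6 and Mir98 in TXdXicCast, named after their values were seen.

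Some genes stand in more than 1 of the lists that follow (Hmga1, Igf1r and Irs2 among them). Of 23 other known let-7 targets 16 rose and 2 fell in TX1072, with a median log2 change of 0.71, where 30.2% of all genes tested rose, 29.4% fell and the median was -0.03. The largest changes were those of Thbs1, a secreted matrix protein, with 6.47 ± 0.30, of the cyclin Ccnd2 with 4.13 ± 0.35, of Arid3a with 2.88 ± 0.14, of the insulin receptor substrate Irs2 with 2.61 ± 0.19 and of the receptor Igf1r with 2.25 ± 0.17 (log2, SE; edgeR, all called). In TXdXicB6 15 rose and 1 fell, against backgrounds of 30% and 29.5%, and in TXdXicCast 14 rose and 4 fell, against 36.2% and 33.6%. Counted from day 1 to day 4, 13 rose and 6 fell in TXdXicB6 and 11 rose and 6 fell in TXdXicCast, with median log2 changes of 0.36 and 0.18. Of all genes tested, 27.9% rose and 28.7% fell between these days in TXdXicB6, and 29.3% and 30.1% in TXdXicCast. In the first day of TX1072 9 rose and 7 fell, where 23.5% and 23.4% of all genes did.

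Among 9 other genes of the high mobility group families 6 rose, 3 did not pass and none fell in TX1072, where 30.2% of all genes tested rose and 29.4% fell. Hmgn3, a nucleosome-binding protein, rose by 4.35 ± 0.22, from 0.739 ± 0.191 to 15.0 ± 1.74 CPM, and Hmga1, the paralog of Hmga2, by 0.48 ± 0.12 (edgeR, adjusted p = 6.99e-12 and 0.00209). In TXdXicB6 Hmga1 rose by 0.70 ± 0.15 (edgeR, adjusted p = 2.05e-04), and in TXdXicCast its log2 change was 2.71e-04 ± 0.15 (adjusted p = 0.999). Hmga1 and Hmga1b share most of their sequence, and reads may be split between them. In TXdXicB6 5 of these 9 rose and none fell, and in TXdXicCast 3 rose and 3 fell, against the shares of all genes given above for these lines. Between days 1 and 4 it was 4 and 0 in TXdXicB6 (all genes 27.9% and 28.7%) and 3 and 1 in TXdXicCast (all genes 29.3% and 30.1%).

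Of 11 tested genes of insulin-like growth factor signalling 7 rose, 1 fell and 3 did not pass in TX1072, where 30.2% of all genes tested rose and 29.4% fell. The same counts were found in both deletion lines, with the shares of all genes given above. Between days 1 and 4, 8 of the 11 rose in TXdXicB6 and 9 in TXdXicCast, and none fell. Over all genes tested 27.9% rose and 28.7% fell there in TXdXicB6, and 29.3% and 30.1% in TXdXicCast. H19, the maternally expressed RNA of the Igf2 locus, rose from 5.12 ± 1.65 to 1503 ± 50.4 CPM, and Igf2 itself, the growth factor whose mRNA gave the IGF2BP proteins their name, from 0.667 ± 0.293 to 12.5 ± 3.18 CPM. The log2 changes were 8.22 ± 0.24 and 4.25 ± 0.30 (SE; edgeR, adjusted p = 1.79e-14 and 9.66e-10). Of 8 mRNAs and RNAs known to be bound by IGF2BP proteins, which include these, 6 rose, 1 fell and 1 did not pass, with Myc at 8.39 ± 4.05 CPM on day 0 and 29.5 ± 4.34 CPM on day 4.

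The genes most like each member over the 15 TX1072 libraries were named from those with a mean count of at least 100, by Pearson's r of log2(CPM + 1). Libraries of a day share their condition, so any gene with a like time course scores high. Lin28a was closest to Esrp1 (r = 0.99 in TX1072, 0.99 in the deletion lines), Foxr2 (r = 0.99 in TX1072, 0.95 in the deletion lines) and Psors1c2 (r = 0.99 in TX1072, 0.97 in the deletion lines). Lin28b was closest to Smarca1 (r = 0.99 in TX1072, 0.98 in the deletion lines), Stk39 (r = 0.99 in TX1072, 0.97 in the deletion lines) and 4833420G17Rik (r = 0.99 in TX1072, 0.98 in the deletion lines). Hmga2 was closest to Zbtb44 (r = 0.99 in TX1072, 0.92 in the deletion lines), Dmd (r = 0.98 in TX1072, 0.93 in the deletion lines) and Sh2d4b (r = 0.98 in TX1072, 0.92 in the deletion lines), and Igf2bp2 to Irf2bpl (r = 0.97 in TX1072, 0.93 in the deletion lines), Ing1 (r = 0.97 in TX1072, 0.86 in the deletion lines) and Mrps5 (r = 0.97 in TX1072, 0.94 in the deletion lines). Igf2bp3 was closest to Nfxl1 (r = 0.98 in TX1072, 0.91 in the deletion lines), Azi2 (r = 0.97 in TX1072, 0.88 in the deletion lines) and Dpp8 (r = 0.96 in TX1072, 0.89 in the deletion lines). Among the 3 genes closest to Igf2bp1 were Cdk11b (r = 0.92 in TX1072, 0.18 in the deletion lines) and Safb2 (r = 0.92 in TX1072, 0.03 in the deletion lines), and Igf2bp1 was the member whose likenesses held least over the other 30 libraries. Among the members themselves Lin28a and Lin28b had r = 0.88 in TX1072 and 0.92 in the deletion lines, Lin28b and Hmga2 -0.91 and -0.88, and Hmga2 and Igf2bp2 0.80 and 0.75.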

How the data were processed

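Per the labels and the methods, the authors aligned reads with STAR 2.5.2b to mm10 (GRCm38) with strain variants masked, assigned them to B6 or Cast with SNPsplit and counted them per gene with featureCounts (bulk) or the Drop-seq pipeline (single cells), and deposited raw counts of reads (bulk) and of UMIs (single cells, also as spliced, unspliced, B6 and Cast counts). Day 1 cells were sequenced in 2 runs that the deposited table merges. Whether bulk counting used strand is not given in the sources used here. No column of another series was used.

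The 15 TX1072 and 30 deletion-line libraries were fitted as 2 tables with edgeR 4.0.16 in R 4.3.3 (filterByExpr, TMM, quasi-likelihood F test, 1 mean per line and day), with Benjamini-Hochberg adjustment over all genes tested and a threshold of 0.05. Standard errors are those of the log2 coefficients (change divided by the root of F), and 95% intervals are normal intervals from them. Allelic counts were fitted with both alleles of a library as 2 columns and library as a block. DESeq2 1.42.0 was an alternative, with other scalings, no filter, the replicate block and single libraries left out. Single-cell counts were summed per day over the cells that the study's own cell list retains. The pipeline was tested on simulated counts. Sites of let-7 were read from GENCODE M21 and RefSeq tables, and 51544 of 52108 symbols matched the annotation. Coordinates are GRCm38, counted from 1. The Poisson and Clopper-Pearson intervals of the single-cell counts treat UMIs or cells as independent and cover counting error only.

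Replicate numbers mark differentiations started on different days, per the study's notes. Deviations from the group means correlated with a median r of 0.19 between TX1072 libraries of the same number and -0.10 between those of different numbers, and with 0.27 and -0.19 within a deletion line and 0.15 and -0.10 between the deletion lines. Replicates are thus separate differentiations of 1 line, and p-values measure the spread between these samples. The main tests of levels had no replicate block, so they did not use this likeness of libraries with the same number. Fits with the block are given as an alternative.

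The members, the gene lists and the tests were chosen with earlier results of these data known. Genes outside the members were named by rule, as the up to 5 called genes of a list with the largest change at day 4 in TX1072 and the 3 genes most like each member, of which 1 is not reported here. TX1072 replicate 1 and the single cells came from 1 population, and allele-specific spliced and unspliced counts were not used.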

Additional observations from a re-analysis of the deposited data

Results flagged for a closer look

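In single cells, 3 of the 30 sets of 10 chip columns (6 genes on 5 days) held a column that stood apart from the other 9 by Dixon's criterion, where chance gives about 1 in 20. For Lin28a on day 1, column 2, with 30 cells, was at 57.0 UMI CPM, and the others were at 19.6 to 35.7. For Lin28a on day 2, column 2, with 33 cells, was at 58.3, and the others were at 23.3 to 41.0. For Lin28b on day 3, column 6, with 27 cells, was at 132, and the others were at 28.3 to 79.2.

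Between the deletion lines, 3 changes differed by the test of the difference itself, TXdXicCast minus TXdXicB6. The change from day 0 to day 3 differed by -0.68 ± 0.17 (log2, SE) for Igf2bp2 (edgeR, adjusted p = 0.0157), that from day 0 to day 4 by -0.73 ± 0.18 for Igf2bp2 (adjusted p = 0.00570) and by -0.71 ± 0.16 for Lin28a (adjusted p = 0.00409). The day 0 libraries of TXdXicCast, made from degraded RNA, are part of all 3, and no difference in the change from day 1 to day 4 passed. In edgeR the first of these calls is lost without TXdXicB6 day 0 replicate 3 (-0.59, adjusted p = 0.0626) or TXdXicCast day 3 replicate 3 (-0.58, adjusted p = 0.0679).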

How the results depend on the processing

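Day 4 against day 0 kept its direction for Lin28a, Lin28b, Hmga2, Igf2bp2 and Igf2bp3 in each line under the alternative test, scalings, filter, replicate block and left-out libraries. Without the filter on low counts (edgeR) 3 calls were lost, those of Igf2bp1 (-0.25) and Igf2bp3 (0.30) in TXdXicB6 and of Igf2bp1 in TXdXicCast (-0.28). The line difference at day 4, fitted alone, was -0.41 for Lin28a and -0.45 for Igf2bp2, both lost, and 501 genes were called in place of 1165. With the replicate block 1772 genes were called there, and of the changes from day 0 to day 3 2959 in place of 1814. In the change from day 1 to day 4, 149 genes were called, with 255 under the block, 354 by DESeq2 and 412 without the filter. At day 0 the line difference of Igf2bp1 was -0.02 and turned to 0.034 with autosomal TMM factors and 0.012 without the filter, and 1 member was called by DESeq2 (Lin28a), with autosomal factors (Lin28a) or with the block (Igf2bp2). At day 3, 1 was called with the block (Igf2bp2) or without the filter (Hmga2). The block also called Hmga2 in the change from day 0 to day 3 (0.73) and changed no other call of a member. By an exact sign-flip test over libraries (two-sided, pseudocount 1), the mean log2 B6 to Cast ratio of Lin28a was 0.080 in TX1072, 0.033 in TXdXicB6 and 0.13 in TXdXicCast, and no longer passed (exact p = 0.191, 0.794 and 0.125), and the change of Igf2bp2 from day 0 to day 4 in TXdXicB6 was -0.032 (3 pairs, smallest p 0.25). Without the allelic filter, the changes from day 1 to day 4 of Igf2bp2 in TXdXicB6 (-0.21) and of Igf2bp1 in TXdXicCast (-0.12) lost their calls. Thinning moved the single-cell log2 ratio of day 4 to day 0 to 2.51 for Lin28b and -1.38 for Hmga2. For each of these the cause was not tested. All scalings kept the median of all genes within 0.1 of its log2 value.

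With 1 library left out, the following values changed their sign, their call or, for a number of genes or members called, their size. TX1072 day 3 against day 0 ran from -0.040 to 0.15 for Igf2bp1. TX1072 day 4 against day 0 ran from -0.066 to 0.12 for Igf2bp1. TX1072 day 4 against day 3 ran from -0.16 to 0.041 for Hmga2 and -0.098 to 0.063 for Igf2bp1. The call of Lin28a in this comparison was lost without any of the libraries named above for it. TXdXicB6 day 4 against day 0 ran from -0.35 to -0.14 for Igf2bp1. TXdXicCast day 4 against day 0 ran from -0.31 to -0.23 for Igf2bp1. The difference between the deletion lines at day 0 ran from -0.050 to 0.030 for Igf2bp1 and 0 to 1 for the number of members called. The difference between the deletion lines at day 4 ran from -0.12 to 0.069 for Igf2bp1, -0.56 to -0.31 for Igf2bp2, -0.033 to 0.063 for Igf2bp3, -0.47 to -0.32 for Lin28a and 326 to 1232 for the number of genes called. Between the deletion lines the change from day 0 to day 3 ran from -0.0039 to 0.34 for Lin28b. The call of Igf2bp2 in this change was lost without either of the libraries named above for it. Between the deletion lines the change from day 0 to day 4 ran from -0.10 to 0.085 for Igf2bp1, -0.25 to 0.098 for Lin28b and 1780 to 4064 for the number of genes called. Between the deletion lines the change from day 1 to day 4 ran from -0.25 to 0.15 for Hmga2, -0.050 to 0.14 for Igf2bp1 and 24 to 229 for the number of genes called. The difference between the deletion lines at day 3 ran from 0 to 1 for the number of members called. TX1072 B6 against Cast, change from day 0 to day 4 ran from -0.023 to 0.040 for Igf2bp1 and -0.039 to 0.12 for Igf2bp2. TXdXicB6 B6 against Cast over days 0 to 4 ran from -0.0043 to 0.0067 for Igf2bp1. TXdXicB6 B6 against Cast, change from day 1 to day 4 ran from -0.24 to -0.18 for Igf2bp2 and -0.34 to -0.18 for Igf2bp3. TXdXicCast B6 against Cast, change from day 0 to day 4 ran from -0.050 to 0.013 for Igf2bp1. TXdXicCast B6 against Cast, change from day 1 to day 4 ran from 0.34 to 0.46 for Hmga2, -0.14 to -0.10 for Igf2bp1, -0.33 to -0.21 for Igf2bp3 and 0.40 to 0.48 for Lin28b. The single-cell log2 ratio of day 4 to day 0 was not tested, and without 1 chip column it changed in size and kept its sign. It ran from 2.12 to 2.57 for Lin28b, -1.36 to -1.24 for Hmga2, -0.093 to -0.026 for Igf2bp1, -1.39 to -1.23 for Igf2bp2 and 0.56 to 0.63 for Igf2bp3.

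Counts of 21 for Lin28b in 1 library of TXdXicB6 at day 0 limit its allelic share there, 1 culture per day limits the single-cell values to description, and 1 clone per deletion line limits line differences. Leave-one-out fits of the allelic counts took dispersions from 1 in 20 genes.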
